A study of Mus musculus with 8 samples.

Results

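Carboxylesterases are serine hydrolases that lie in the lumen of the endoplasmic reticulum and cleave ester and amide bonds. In the liver they act on drugs and other foreign esters and on neutral lipids, and some members take part in releasing stored triglyceride for very low density lipoprotein (VLDL). The 10 genes described here were all rows of the deposited expression table whose Ensembl identifier carries one of 10 mouse symbols, of 38283 genes in the table. They are 5 Ces1 genes (*Ces1c*, *Ces1d*, *Ces1e*, *Ces1f* and *Ces1g*), 3 Ces2 genes (*Ces2a*, *Ces2c* and *Ces2e*) and 2 Ces3 genes (*Ces3a* and *Ces3b*). No threshold on a measured value enters that rule. All 10 had FPKM above 1 in all 8 libraries and so were among the 11634 genes tested.

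The libraries came from livers of male C57BL/6 mice fed a control diet (CD) or a high-fat diet (HFD, 60% of energy from fat) for 10 weeks from 8 weeks of age. Control mice carried 2 floxed copies of *Rora*, the gene of the nuclear receptor RORα (f/f), and the deleted mice carried the same alleles with Cre driven by the albumin promoter, which removes exons 4 and 5 in hepatocytes (LKO). Each of the 4 groups of genotype and diet had 4 mice, pooled by 2 into 2 libraries, so the spread between libraries covers pools and not single animals. Values are FPKM, in which the fragments of a gene are divided by its transcript length and by the size of the library, so that levels can be compared between genes. FPKM of *Rora*, which covers the whole gene and not the removed exons alone, ran from 7.30 to 8.85 and did not separate the genotypes on HFD. On CD it was 7.96 and 8.18 FPKM under the LKO label and 8.85 and 8.59 FPKM under the f/f label. The authors reported marked loss of *Rora* mRNA and RORα protein in liver and primary hepatocytes of LKO mice. Genotypes are named by their labels throughout. *Ttr*, a secreted hepatocyte protein, stood at 3994 to 4541 FPKM in every library, whereas *Alb* was listed at 0 in 4 of 8 libraries, so a listed 0 in this table can be a failed estimate. One f/f library on CD (replicate 2) stood apart in its total, with 43.7% of its summed FPKM in 10 genes against 29.7% to 38% in the other libraries.

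All 10 genes lie on chromosome 8 of GRCm38 in 2 blocks. The Ces1 block is on the minus strand and holds *Ces1c* (chr8:93099015-93131283), *Ces1d* (chr8:93166068-93197838), *Ces1e* (chr8:93201218-93229619), *Ces1f* (chr8:93256236-93279747) and *Ces1g* (chr8:93302369-93337308). The other block is on the plus strand and holds *Ces2a* (chr8:104734003-104741634), *Ces2c* (chr8:104847068-104854483), *Ces2e* (chr8:104926260-104934672), *Ces3a* (chr8:105048601-105058413) and *Ces3b* (chr8:105083753-105093929). Transcripts of the 3 Ces2 genes were 81.9% to 83.2% identical in pairwise alignments, and those of *Ces3a* and *Ces3b* 95.4%. Between the Ces1 and Ces2 groups the identity was lower, for example 64.2% for *Ces1d* with *Ces2a*.

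The results below turn on *Ces2a* and *Ces2c*, which were lower on HFD, beside *Ces2e*, which showed no such difference, so the promoters of these 3 neighbours are shown. Each runs from 250 bases before to 50 bases after the annotated start (RefSeq, GRCm38.p6, plus strand, 5′ to 3′). RefSeq promoters were matched by symbol for 7 of the 10 genes. *Ces2a* is at chr8:104733753-104734052, *Ces2c* at chr8:104846818-104847117 and *Ces2e* at chr8:104926010-104926309, and capitals mark matches to the motifs named after them.
Ces2a: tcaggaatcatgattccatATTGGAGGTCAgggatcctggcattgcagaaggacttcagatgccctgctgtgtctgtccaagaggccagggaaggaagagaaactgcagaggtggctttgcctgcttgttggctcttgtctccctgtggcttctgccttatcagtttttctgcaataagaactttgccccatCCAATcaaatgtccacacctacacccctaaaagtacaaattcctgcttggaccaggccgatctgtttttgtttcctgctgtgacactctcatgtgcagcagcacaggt
Ces2c: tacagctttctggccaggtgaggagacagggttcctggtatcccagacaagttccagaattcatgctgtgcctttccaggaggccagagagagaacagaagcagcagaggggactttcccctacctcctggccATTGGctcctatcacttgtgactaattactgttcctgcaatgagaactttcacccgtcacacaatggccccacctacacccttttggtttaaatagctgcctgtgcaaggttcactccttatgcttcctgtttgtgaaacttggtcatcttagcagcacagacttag
Ces2e: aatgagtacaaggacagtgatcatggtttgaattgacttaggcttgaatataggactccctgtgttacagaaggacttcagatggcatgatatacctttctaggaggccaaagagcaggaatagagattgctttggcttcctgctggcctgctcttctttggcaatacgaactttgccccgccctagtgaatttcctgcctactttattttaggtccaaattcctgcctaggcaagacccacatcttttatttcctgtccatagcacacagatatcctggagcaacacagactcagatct
The motifs searched on both strands were the nuclear receptor half-site AGGTCA, the HNF4 cores CAAAGTCCA and CAAAGTTCA, the TATA box TATAAA and the CCAAT box CCAAT. The half-site occurs once in the *Ces2a* promoter, at position −226 counted from the first transcribed base, directly after a CCAAT box on the minus strand at −231, and a second CCAAT box begins at −58. The *Ces2c* promoter holds a CCAAT box on the minus strand that begins at −117. None of the 5 motifs matched in the *Ces2e* window, which says only that these letters are not in it. Of 32851 promoters of the same length, 16.3% hold AGGTCA, 37.4% CCAAT, 13.6% TATAAA and 0.475% and 0.39% the 2 HNF4 cores. Aligned in pairs, the 3 promoters were 66.3% to 69.4% identical. Other pairs among the 7 promoters ran from 52.7% (*Ces2a* with *Ces3b*) to 67.3% (*Ces1c* with *Ces1g*), with 65.5% for *Ces2e* with *Ces3b*. A match is a description of letters and not of a bound site.

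The family spans a wide range of expression. *Ces1c*, which encodes an esterase secreted into plasma, had the highest mean over the 8 libraries, 1175 FPKM, and ranked 75 by mean among the 11634 genes tested. *Ces3a*, formerly Es31, followed with 789 FPKM and rank 105. *Ces1d*, the triacylglycerol hydrolase that mobilises lipid for VLDL, stood at 329 FPKM, *Ces1f*, a related triacylglycerol hydrolase, at 229 FPKM and *Ces3b* at 193 FPKM. *Ces2a* (81.7 FPKM), *Ces2e* (73.8 FPKM), *Ces1e* (62.8 FPKM) and *Ces1g* (62.6 FPKM) formed a lower tier. *Ces2c*, an acylglycerol hydrolase, was the lowest member at 17.5 FPKM, and it also had the widest range, its highest library lying 7.90 times above its lowest, against 2.68 times for *Ces2a* and 1.19 times for *Ces1c*. In this order *Ces1c*, *Ces3a*, *Ces1d* and *Ces2c* did not overlap with a neighbour over the 8 libraries, whereas *Ces1f* overlapped with *Ces3b*, *Ces3b* with *Ces2a*, and *Ces2a*, *Ces2e*, *Ces1e* and *Ces1g* with one another.

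**Figure D1:**
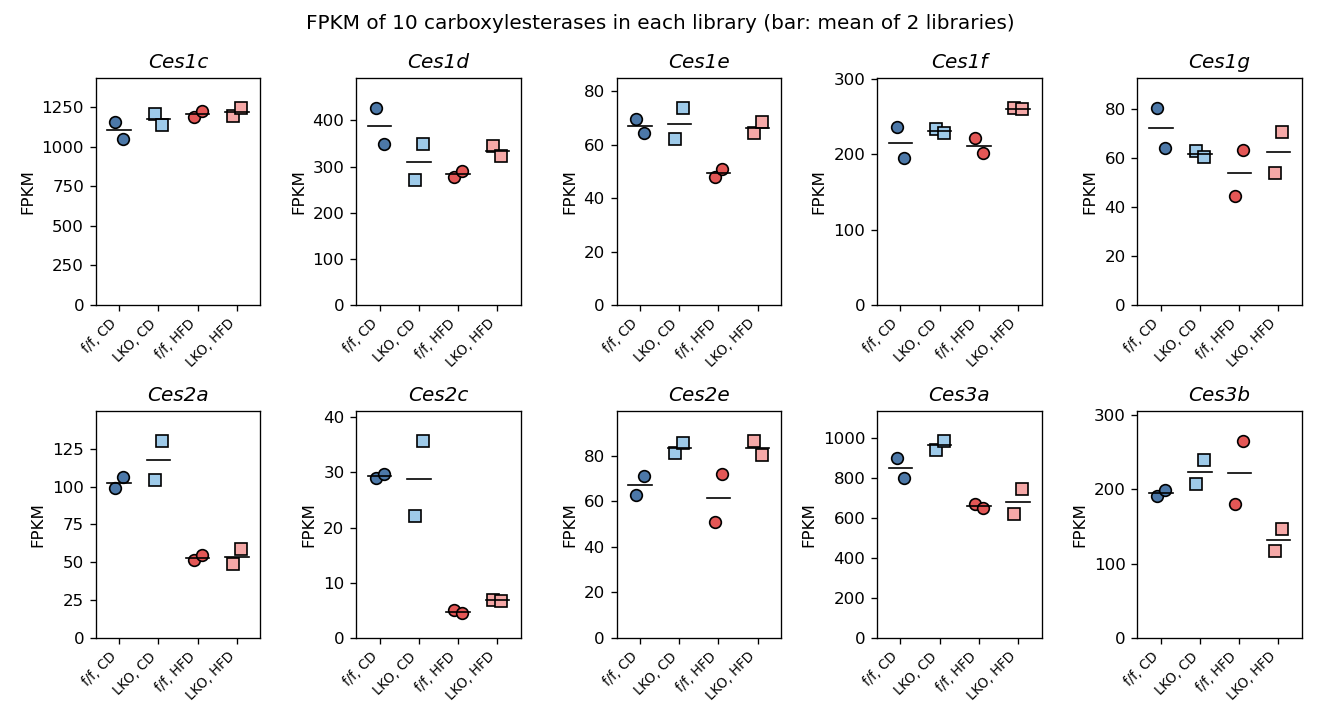
FPKM of each of the 10 carboxylesterases (vertical axis, from 0, scaled to each gene) in the 2 libraries of each group (horizontal axis), with circles for f/f-labelled and squares for LKO-labelled libraries and a bar at the mean of 2 libraries. The HFD libraries of *Ces2c* sit between 4.52 and 6.89 FPKM and the CD libraries between 22.1 and 35.7, and *Ces2a* is separated in the same way, whereas the diets overlap for *Ces2e*.

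The diet comparisons ask how the family differs between HFD-fed and CD-fed liver, under each genotype label and over both. *Ces2c* and *Ces2a* fell on HFD under both labels, *Ces2c* by more than *Ces2a*, and *Ces2e*, which lies downstream of them in the same block, did not pass the test in any comparison. Pooled over the labels, 3 of the 10 genes passed an adjusted p under 0.05, *Ces2c* and *Ces2a* lower and *Ces1c* higher, where 9.89% of all tested genes did (4.86% lower and 5.04% higher). In f/f-labelled libraries 2 of 10 passed, against 1.33% of all tested genes (0.705% lower), and in LKO-labelled libraries the same 2 genes passed, against 3.02% (1.44% lower). At an unadjusted p under 0.05 the numbers were 6 of 10 over both labels beside 27.9% of tested genes, 4 under the f/f label beside 19.2% and 5 under the LKO label beside 21.3%. The 2 single-label comparisons share no libraries with each other, but each shares its libraries with the pooled one.

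*Ces2c* was 29.0 and 29.7 FPKM in the f/f-labelled CD libraries and 22.1 and 35.7 FPKM in the LKO-labelled CD libraries. On HFD it was 4.98 and 4.52 FPKM under the f/f label and 6.89 and 6.78 FPKM under the LKO label. All 4 HFD libraries therefore lay below all 4 CD libraries, a separation in either direction that 16.5% of tested genes showed. On the quantile-normalised log2(FPKM + 1) scale, on which all fold changes are given and which understates the change of low genes, *Ces2c* fell by 2.12 over both labels (standard error 0.13, limma adjusted p = 0.00134), a 4.33-fold lower value. The fall was 5.14-fold under the f/f label (log2 fold change −2.36, standard error 0.19, adjusted p = 0.00781) and 3.66-fold under the LKO label (−1.87, standard error 0.19, adjusted p = 0.0158). The difference between the 2 falls was 0.49 on the log2 scale with a 95% interval from −0.14 to 1.13 (adjusted p = 0.661), which does not show that they were alike. Among the 11634 tested genes 58 had a larger absolute log2 fold change in the pooled comparison. Transcripts of *Ces2c* share 42.2% of their 50-base words with other genes, 734 of 1921 with the pseudogene *Ces2d-ps*, so that reads could be split between them. *Ces2d-ps* itself was listed at 0.0977 to 0.339 FPKM, far below *Ces2c* on either diet.

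*Ces2a*, formerly Ces6, lies upstream of *Ces2c*. It was 99.1 and 106 FPKM in the f/f-labelled and 104 and 130 FPKM in the LKO-labelled CD libraries. On HFD it was 51.5 and 54.7 FPKM under the f/f label and 48.6 and 59.0 FPKM under the LKO label. Here too every HFD library lay below every CD library, as 16.5% of tested genes showed in either direction. *Ces2a* fell by 0.96 over both labels (standard error 0.09, limma adjusted p = 0.00433), 1.94-fold, with 1.85-fold under the f/f label (adjusted p = 0.038) and 2.04-fold under the LKO label (adjusted p = 0.0194). Its falls differed between the labels by −0.14 (95% interval −0.58 to 0.30). The pooled calls of *Ces2c* and *Ces2a* held without any 1 library (log2 fold changes −2.28 to −1.95 and −1.03 to −0.88), but with 2 libraries a group those under 1 label did not. Under the f/f label *Ces2a* was lost without any 1 of the 8 libraries (adjusted p from 0.0561 to 0.212) and *Ces2c* without any of the 4 f/f-labelled ones (up to 0.0751), and under the LKO label both were lost without either LKO-labelled HFD library and *Ces2a* also without f/f CD or LKO CD replicate 2 (up to 0.101 for *Ces2a* and 0.0844 for *Ces2c*). A share of 22.2% of its 50-base words occurs in other genes, mainly in *Gm7208*.

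*Ces2e*, formerly Ces5, is the third Ces2 gene of the group. It was 62.9 and 71.0 FPKM under the f/f label and 81.3 and 85.5 FPKM under the LKO label on CD, and 51.0 and 71.9 FPKM and 86.5 and 80.4 FPKM on HFD. Libraries of the 2 diets overlapped under both labels. The pooled log2 fold change had a 95% interval from −0.26 to 0.26 (limma adjusted p = 0.994), so a fall of the size seen in *Ces2a* lies outside the interval. *Ces2e* shares 3.36% of its 50-base words with other genes.

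Within a library, the ratio of 2 genes does not depend on how libraries are scaled. The ratio of *Ces2c* to *Ces2e* was between 0.272 and 0.461 in the 4 CD libraries and between 0.0628 and 0.0975 in the 4 HFD libraries. That of *Ces2a* to *Ces2e* was between 1.29 and 1.58 on CD and between 0.562 and 1.01 on HFD. That of *Ces2c* to *Ces2a* was between 0.211 and 0.293 on CD and between 0.0826 and 0.142 on HFD. For all 3 ratios the diets did not overlap. These genes were picked with their diet values known, and *Ces2c* and *Ces2a* alone already separated the diets. The ratios are therefore no further evidence of a diet difference, and the share of other gene pairs with such a separation was not counted. Summed over the 3 Ces2 genes, which removes any exchange of reads among them, FPKM on HFD was 0.600 times that on CD under the f/f label and 0.628 times under the LKO label.

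**Figure D2:**
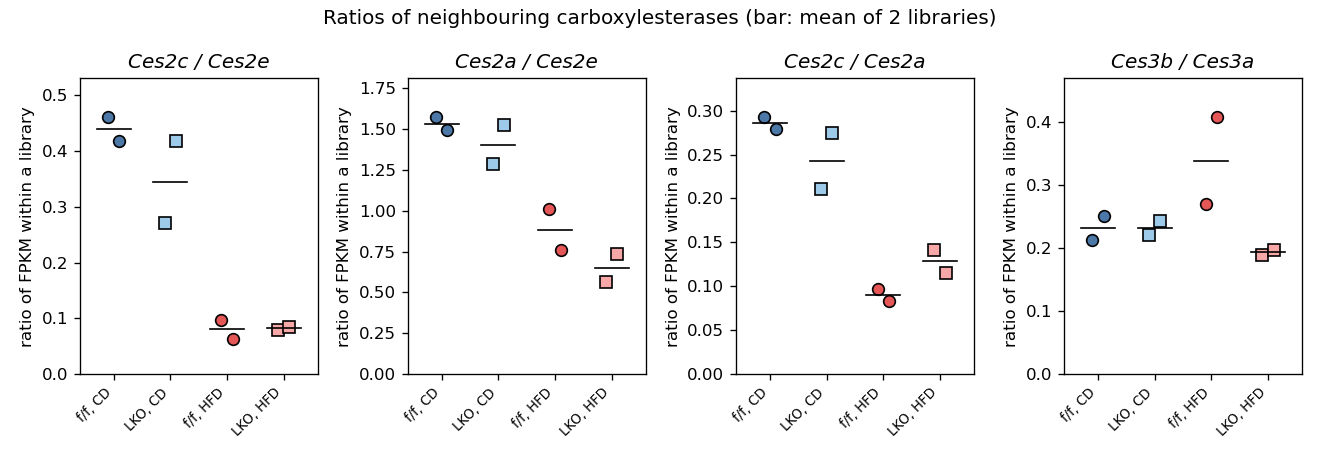
Ratio of the FPKM of 2 neighbouring genes within each library (vertical axis, from 0, no unit) by group (horizontal axis), with a bar at the mean of 2 libraries. The ratio of *Ces2c* to *Ces2e* is at most 0.0975 on HFD and at least 0.272 on CD, and the ratio of *Ces3b* to *Ces3a* is highest in an f/f-labelled HFD library at 0.408.

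*Ces1c* was 1158 and 1047 FPKM in the f/f-labelled and 1206 and 1138 FPKM in the LKO-labelled CD libraries, and 1184, 1227, 1193 and 1244 FPKM in the HFD libraries in the same order. The 2 diets overlapped over the 8 libraries by 1 CD library. *Ces1c* rose by 0.30 on the log2 scale over both labels (standard error 0.06, limma adjusted p = 0.0279), 1.23-fold. This call rested on the scaling, since without normalisation the log2 fold change was 0.09 (adjusted p = 0.338) and with each library centred on its median 0.12 (adjusted p = 0.231). It was also lost without any one of 7 of the 8 libraries, the exception being f/f CD replicate 1, with adjusted p between 0.0463 and 0.104. As a share of the FPKM summed over the 10 genes, *Ces1c* took 34.2% to 37.8% on CD and 41.4% to 43.3% on HFD. This share also grows when other members fall, so it is not evidence of a rise of *Ces1c*. Mean *Ces1c* went from 1102 to 1206 FPKM under the f/f label and from 1172 to 1218 FPKM under the LKO label. The sum of *Ces3a* and *Ces3b* went from 1045 to 883 FPKM and from 1186 to 813 FPKM.

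*Ces3a* was 901 and 799 FPKM under the f/f label and 940 and 986 FPKM under the LKO label on CD, and 669, 651, 620 and 743 FPKM on HFD in the same order. All 4 HFD libraries lay below all 4 CD libraries, a separation that 16.5% of tested genes showed in either direction. Over both labels it differed by −0.25 on the log2 scale, with a standard error of 0.08, and did not pass the test (adjusted p = 0.0939 in limma). Without normalisation it was −0.43 (adjusted p = 0.019) and with median centring −0.41 (adjusted p = 0.0222), so that the call of this gene, like that of *Ces1c*, moved with the scaling. *Ces3a* and *Ces3b* share 30.9% and 26.1% of their 50-base words with each other, and their split is uncertain. The sum of both was 0.844 times the CD value on HFD under the f/f label and 0.686 times under the LKO label.

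The other members did not pass the test in a diet comparison. *Ces3b* was 191 and 200 FPKM and 207 and 239 FPKM on CD, and 180 and 265 FPKM under the f/f label and 117 and 146 FPKM under the LKO label on HFD. Its log2 fold change was 0.22 (95% interval −0.24 to 0.67) under the f/f label and −0.66 (−1.12 to −0.21, limma adjusted p = 0.116) under the LKO label. *Ces1e*, known as egasyn, holds β-glucuronidase in the endoplasmic reticulum, and was −0.36 (−0.57 to −0.15, adjusted p = 0.101) under the f/f label and 0.06 (−0.15 to 0.26) under the LKO label. Over both labels *Ces1e* stood at −0.15 (adjusted p = 0.17). *Gusb*, which encodes β-glucuronidase, fell over both labels by 0.37 (standard error 0.08, adjusted p = 0.0366), a call that was lost without any 1 of the 8 libraries (adjusted p from 0.0542 to 0.112), and the difference between the 2 genes was not tested. *Ces1d* was −0.34 under the f/f label and 0.32 under the LKO label, *Ces1g* −0.38 and 0.08, and *Ces1f* 0.05 and 0.32, none with an adjusted p under 0.05. The median log2 fold change of the 10 genes was −0.29 under the f/f label, 0.07 under the LKO label and −0.15 over both, beside 0.01 in each case over all tested genes.

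**Figure D3:**
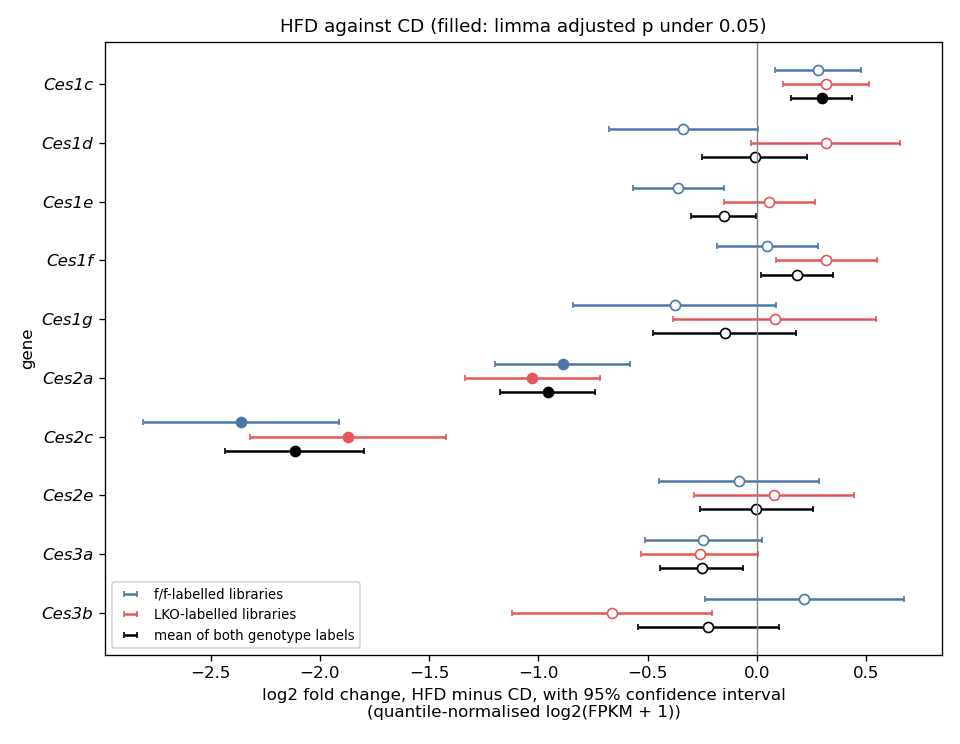
Log2 fold change of HFD against CD for each gene (horizontal axis, quantile-normalised log2(FPKM + 1), bars are 95% confidence intervals) under the f/f label (blue), the LKO label (red) and over both (black), with filled points where the limma adjusted p is under 0.05. *Ces2c* and *Ces2a* lie left of 0 with all 3 points filled, and *Ces1c* is filled at 0.30 in the pooled comparison, a call that was lost without normalisation.

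The genotype comparisons ask how the family differs between LKO-labelled and f/f-labelled liver on each diet. None of the 10 genes passed an adjusted p under 0.05 in limma on HFD, where 0.043% of tested genes did, or on CD, where 0.0172% did. At an unadjusted p under 0.05, 5 of 10 passed on HFD beside 9.58% of tested genes, *Ces1e*, *Ces1f*, *Ces2c* and *Ces2e* higher and *Ces3b* lower, and 1 of 10 on CD beside 12.3%, *Ces1d* lower. On HFD 9 of 10 log2 fold changes were above 0, also without normalisation, with median centring and with libraries scaled to equal sums, beside 49.1% of tested genes. Their median was 0.27 on HFD and 0.10 on CD, beside −0.000673 and −0.000854 over all tested genes.

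*Ces1e* was 48.1 and 51.0 FPKM in the f/f-labelled and 64.4 and 68.5 FPKM in the LKO-labelled HFD libraries. On CD it was 69.7 and 64.4 FPKM and 62.0 and 73.8 FPKM. The genotypes were thus apart on HFD and overlapped on CD, and such a gap on HFD in either direction was shown by 42.1% of tested genes. The genotypes differed by 0.45 on the log2 scale on HFD (standard error 0.09, unadjusted p = 0.00152, adjusted p = 0.228 in limma) and by 0.03 on CD (standard error 0.09). *Ces1f* had the same order in its HFD libraries, at 221 and 202 FPKM under the f/f label and 261 and 259 FPKM under the LKO label, with a log2 fold change of 0.37 (95% interval 0.14 to 0.60, adjusted p = 0.321). On CD *Ces1f* was 237 and 194 FPKM and 233 and 228 FPKM, and the genotypes overlapped.

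*Ces2e* had all 4 LKO-labelled libraries above all 4 f/f-labelled ones, the only member for which this held, where 4.91% of tested genes showed such a separation in either direction. Over both diets its log2 fold change was 0.40 (standard error 0.11, unadjusted p = 0.00885, limma adjusted p = 0.199), and 0 of 10 genes passed the adjusted test in that comparison beside 0.103% of all tested genes, with 3 of 10 at an unadjusted p under 0.05 beside 13.5%. *Ces2c* was 0.46 higher on HFD under the LKO label (95% interval 0.01 to 0.91, adjusted p = 0.505) and −0.03 on CD (−0.48 to 0.42). *Ces2a* was 0.03 (−0.28 to 0.34) on HFD and 0.17 (−0.14 to 0.48) on CD.

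*Ces3b* had both LKO-labelled HFD libraries, at 117 and 146 FPKM, below both f/f-labelled ones, at 180 and 265 FPKM, and on CD the order was the opposite. Such a gap in either direction was shown by 42.1% of tested genes on HFD and 43.3% on CD. The LKO-labelled group differed by −0.71 on the log2 scale on HFD (standard error 0.19, unadjusted p = 0.00809, adjusted p = 0.324 in limma) and by 0.17 on CD (standard error 0.19). Within a library, the ratio of *Ces3b* to *Ces3a* was 0.269 and 0.408 in the f/f-labelled HFD libraries and 0.189 and 0.197 in the LKO-labelled ones, and between 0.213 and 0.250 on CD. The value on HFD rested largely on f/f replicate 2, without which the log2 fold change was −0.41 (adjusted p = 0.515).

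*Ces1d* was 427 and 350 FPKM in the f/f-labelled and 271 and 349 FPKM in the LKO-labelled CD libraries, and 278 and 290 FPKM against 345 and 323 FPKM on HFD. LKO-labelled libraries thus lay lower on CD, with the nearest pair almost level, and higher on HFD, and 43.3% of tested genes showed such a gap in either direction on CD. On the log2 scale the LKO-labelled group differed by −0.36 on CD (standard error 0.14, unadjusted p = 0.0407, adjusted p = 0.377 in limma) and by 0.29 on HFD (standard error 0.14, adjusted p = 0.586). The value on CD was −0.18 without LKO replicate 1, −0.24 without f/f replicate 1, −0.55 without LKO replicate 2 and −0.11 with libraries scaled to equal sums. *Ces1g*, which was formerly called Ces1, was 80.5 and 64.1 FPKM against 62.9 and 60.5 FPKM on CD and 44.6 and 63.5 FPKM against 54.1 and 70.6 FPKM on HFD, and its intervals held 0 on both diets. *Ces1c* and *Ces3a* were 0.13 and 0.16 higher under the LKO label on HFD and 0.09 and 0.17 higher on CD, all with intervals that held 0.

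The difference between the genotype effects on the 2 diets was tested as an interaction. None of the 10 genes passed an adjusted p under 0.05 in limma, where 0.0344% of all tested genes did, and 3 of 10 had an unadjusted p under 0.05 beside 8.35%, *Ces1d* at 0.65, *Ces1e* at 0.42 and *Ces3b* at −0.88 on the log2 scale, each with an adjusted p of 0.558.

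**Figure D4:**
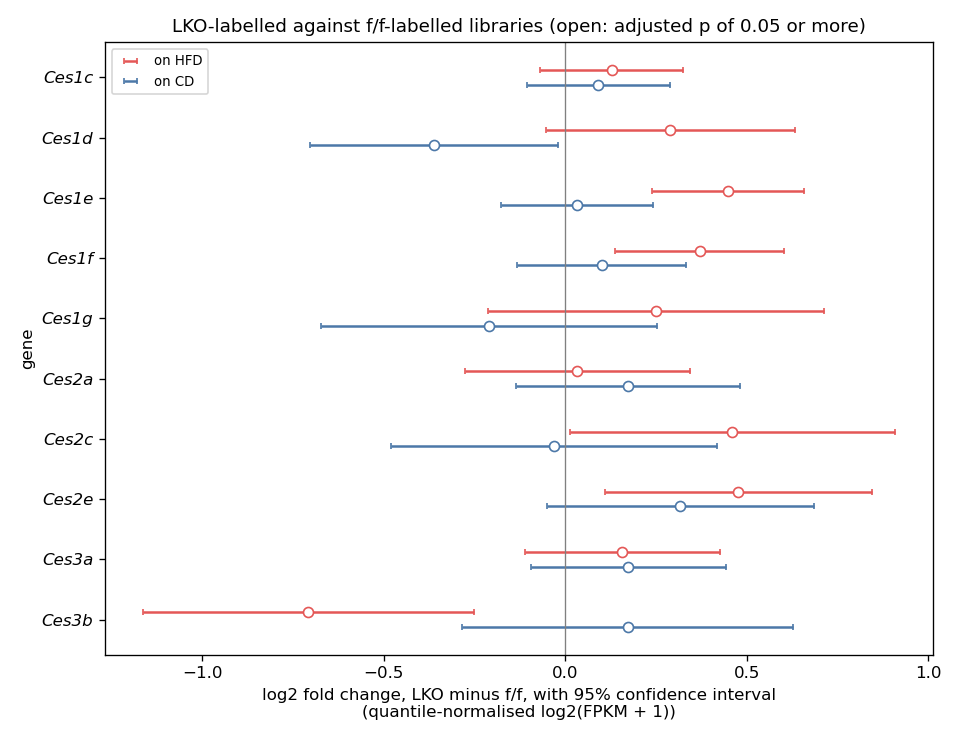
Log2 fold change of LKO-labelled against f/f-labelled libraries for each gene (horizontal axis, quantile-normalised log2(FPKM + 1), bars are 95% confidence intervals) on HFD (red) and on CD (blue). All points are open because no adjusted p was under 0.05, and on HFD 9 of the 10 points lie right of 0 and *Ces3b* lies at −0.71.

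The table held 10 other mouse genes named Ces. *Ces1b*, in the Ces1 block, was 37.8 to 44.8 FPKM over the 8 libraries and *Ces2g*, in the Ces2 block, had a mean of 14.7 and a highest value of 17.2 FPKM. *Ces4a* was 0.552 to 1.92 FPKM and *Ces2b* 0 to 1.84 FPKM. *Ces1a*, *Ces2d-ps* and *Ces2h* stayed at or below 0.339 FPKM, and *Ces1h*, *Ces2f* and *Ces5a* were listed at 0 in all libraries. Of the 4 that were tested, 0 passed an adjusted p under 0.05 in any of the 7 limma comparisons. At an unadjusted p under 0.05, *Ces1b* was higher on HFD over both labels (0.13, adjusted p = 0.131), where 27.9% of all tested genes passed, and higher under the f/f label (0.26, adjusted p = 0.109), where 19.2% did. *Ces1b* also had an interaction of −0.26 (adjusted p = 0.569), where 8.35% passed. *Ces2b* stood at −0.96 between diets under the f/f label (adjusted p = 0.206). It exceeded FPKM 1 only in f/f CD replicate 2 (1.84 FPKM) and entered the test through that library alone. Its fall on HFD is therefore no evidence of a diet difference. *Ces1c* shares 17% of its 50-base words with other genes, most with *Ces1b*.

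CAR and PXR, nuclear receptors that sense foreign compounds and bile acids, switch on many drug-metabolising genes of the liver, Ces2 genes among them. Of 19 genes on a list of such targets, which also holds the genes of CAR and PXR themselves, all were tested. On HFD over both labels 5 fell and 4 rose, beside 9.89% of all tested genes called. Those that fell were *Cyp2b10*, *Cyp3a11*, *Cyp2c55*, *Cyp2c29* and *Gstm1*, and those that rose were *Cyp2b9*, *Cyp2b13* (listed at 0 in 2 CD libraries), *Nr1i3* (which encodes CAR) and *Gstt1*. *Cyp2c55* exceeded FPKM 1 only in CD libraries and *Cyp2b13* only in HFD libraries. Both thus passed the filter only through the diet in which they were high, and their directions are not evidence about the list. When single libraries were omitted, *Gstm1* and *Nr1i3* passed in 1 of 8 fits each, *Cyp2b13* in 2 and *Gstt1* in 4 (adjusted p up to 0.111), whereas the other 5 passed in all 8. *Cyp3a11*, a main steroid and drug oxidase, went from between 1033 and 1234 FPKM on CD to between 214 and 522 FPKM on HFD, −1.53 on the log2 scale (standard error 0.13, adjusted p in limma 0.0036). *Cyp2b10*, the classic CAR target, went from between 5.70 and 11.4 FPKM to between 1.63 and 3.03 FPKM (−1.55, standard error 0.12, adjusted p = 0.00331). *Cyp2b9* moved the other way, from between 2.75 and 6.74 FPKM to between 28.6 and 69.9 FPKM (3.07, standard error 0.33, adjusted p = 0.00586). Genes of these Cyp families are also close copies of one another. The called genes did not all move in 1 direction, also without *Nr1i3*, *Cyp2b13* and *Cyp2c55*, and the median of all 19 genes was −0.10. Of the 5 that passed in all 8 fits, only *Cyp2b9* rose, and *Cyp2b10*, *Cyp3a11*, *Cyp2c29* and *Cyp2c55* fell. A shared direction of the list was not tested. Between genotypes 0 of 19 passed on either diet, and the largest values were 0.96 for *Cyp3a11* on HFD (adjusted p = 0.228) and −0.76 for *Cyp2b10* on CD (adjusted p = 0.212).

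**Figure D5:**
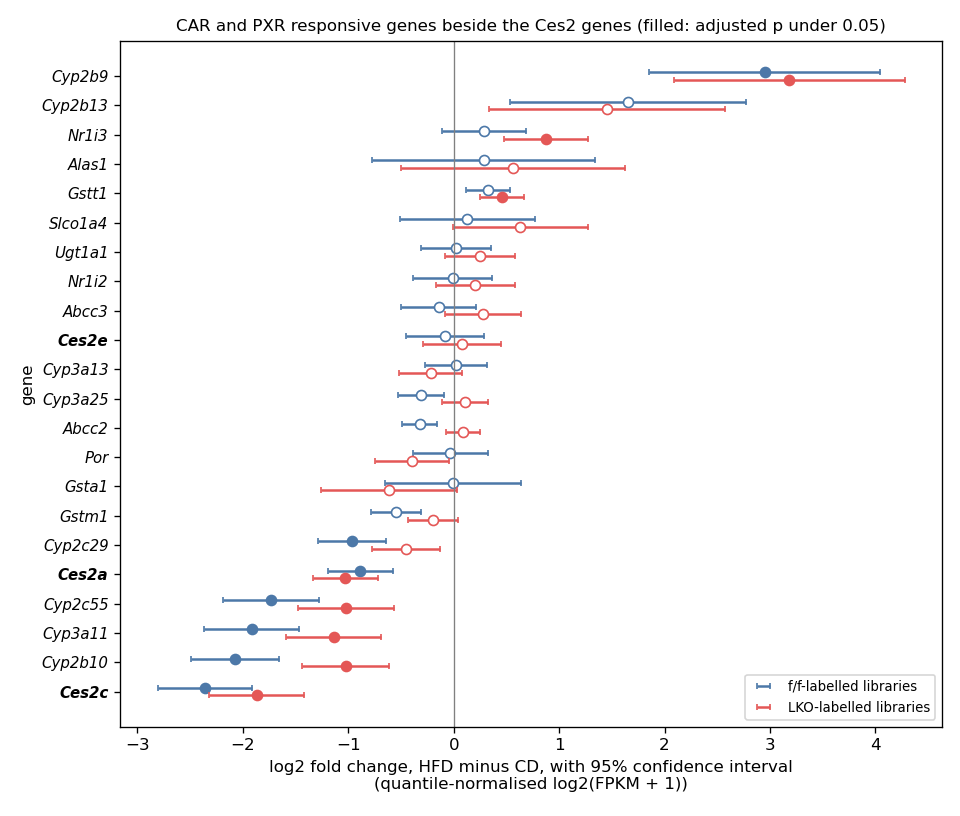
Log2 fold change of HFD against CD (horizontal axis, quantile-normalised log2(FPKM + 1), bars are 95% confidence intervals) under the f/f label (blue) and the LKO label (red) for 19 CAR and PXR responsive genes and, in bold, the 3 Ces2 genes, ordered by the pooled value, with filled points where the limma adjusted p is under 0.05. *Ces2c* at −2.36 and −1.87 lies at the lower end beside *Cyp2b10*, *Cyp3a11* and *Cyp2c55*, *Ces2e* lies near 0, and *Cyp2b9* lies at the other end.

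Among other hydrolases of neutral lipids and esters, 16 of 18 listed were tested, and 2 fell on HFD over both labels and 0 rose, where 4.86% of all tested genes fell and 5.04% rose. They were *Ddhd2*, a lipase of triglyceride and phospholipid, by 0.81 (standard error 0.09, limma adjusted p = 0.00606) and *Abhd6*, a monoacylglycerol lipase, by 0.40 (adjusted p = 0.0409). *Ddhd2* passed in all 8 fits with 1 library left out and *Abhd6* in 1, the one without LKO CD replicate 1 (adjusted p up to 0.13 in the others). Between genotypes 0 passed, with the largest values at 0.44 for *G0s2*, an inhibitor of adipose triglyceride lipase, on HFD (adjusted p = 0.268) and 0.62 for *Lipe*, hormone-sensitive lipase, on CD (adjusted p = 0.239). Of 15 genes of VLDL assembly, the pathway that *Ces1d* feeds, 2 rose and 1 fell on HFD over both labels, beside the 9.89% of all tested genes called there. *Apob*, the structural protein of VLDL, rose by 0.26 and *Dgat2*, which makes triglyceride, by 0.28, and *P4hb*, a subunit of the microsomal transfer protein, fell by 0.28, with adjusted p between 0.0137 and 0.0381. With 1 library left out, *Apob* passed in 0 of 8 fits (adjusted p from 0.0544 to 0.112), *P4hb* in 1, without LKO CD replicate 1, and *Dgat2* in 6, those with both LKO-labelled HFD libraries. *Apob* was also lost without normalisation, at 0.07 (adjusted p = 0.423). *Apoc3* had the largest value under the LKO label at 0.43 (adjusted p = 0.204), which rested on the scaling, since its mean was 1832 FPKM on CD and 1796 FPKM on HFD and the log2 fold change without normalisation −0.03. *Fitm1*, of lipid droplet formation, had the largest genotype value in this list, 0.88 on HFD and 0.82 on CD, with adjusted p of 0.228 and 0.202.

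Of 14 transcription factors known to act on Ces genes or on hepatocyte genes in general, 2 rose and 1 fell on HFD over both labels, beside the same 9.89%. *Hnf4a*, a main hepatocyte factor, rose by 0.28 and *Pparg* by 0.25, and *Cebpb* fell by 0.55, with limma adjusted p between 0.0325 and 0.0475. *Hnf4a* and *Pparg* passed in 0 of 8 fits that omitted a library (adjusted p up to 0.132 and 0.136) and *Cebpb* in 2, those without an f/f-labelled HFD library. *Cebpa* rose under the f/f label by 0.59 (adjusted p = 0.0373, but 0.0582 to 0.194 without any 1 library) and stood at −0.28 under the LKO label (adjusted p = 0.112), and its interaction was −0.87 (unadjusted p = 0.00014, adjusted p = 0.229). *Nr0b2* had the largest value under the LKO label at 0.61 (adjusted p = 0.263). Between genotypes 0 of 14 passed, with *Pparg* at 0.42 on HFD (adjusted p = 0.228) and *Cebpa* at 0.46 on CD (adjusted p = 0.154) the largest, and *Cebpa* stood at −0.41 on HFD (adjusted p = 0.228). The lists of targets, hydrolases, VLDL genes and factors were drawn up with earlier results of these libraries known and are not independent evidence of a direction.

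Livers hold several cell types, and in bulk tissue fewer cells of a type and less RNA per cell cannot be told apart. Beside the falls of *Ces2c* and *Ces2a* on HFD, 3 of 10 hepatocyte markers rose (*Cyp2e1* by 0.92, *Ttr* by 0.39 and *Hnf4a*, which is also on the list of factors) and 1 fell (*Tat*, by 1.14), where 9.89% of all tested genes were called. The value of *Ttr* came with the quantile normalisation, since it was −0.01 without normalisation and 0.02 with median centring, and *Cyp2e1* was 0.55 without normalisation (adjusted p = 0.0125). Of other cell types, 2 of 7 stellate markers (*Dcn* and *Reln*), 1 of 6 endothelial markers (*Lyve1*), 1 of 4 tested of 8 adipocyte markers (*Fabp4*) and 1 of 2 tested of 6 small intestine markers (*Fabp2*) rose, and 0 of 8 tested macrophage and leukocyte and 0 of 2 tested cholangiocyte markers passed the test. *Fabp2* passed in all 8 fits that omitted a library, *Lyve1* in 3, *Dcn* and *Reln* in 2 and *Fabp4* in 0. Summed stellate markers were 39.2 to 61.6 FPKM on CD and 69.7 to 94.5 FPKM on HFD. Most of this sum was *Dcn*, at 26.4 to 45.3 FPKM on CD and 52.5 to 72.2 FPKM on HFD. *Reln*, *Des* and *Lrat* had higher means on HFD under both labels and *Col1a1* and *Col3a1* lower ones. *Acta2* differed in direction between the labels. Summed intestine markers were 70.6 to 92.5 FPKM on CD and 87.6 to 130 FPKM on HFD, with *Sis*, *Cdx1* and *Cdx2* listed at 0 in all libraries. In that sum *Lgals4* was 21.0 to 37.1 FPKM on CD and 26.0 to 30.1 FPKM on HFD, so the rise was that of *Fabp2*. With the genotype label, summed adipocyte markers were 10.2 to 14.2 FPKM in f/f-labelled and 17.9 to 26.6 FPKM in LKO-labelled libraries, while *Adipoq*, *Lep*, *Plin1* and *Retn* were at most 0.377 FPKM, and summed pancreatic acinar markers were 10.1 to 14.3 FPKM and 4.96 to 6.40 FPKM, with 5 of 7 at 0 in all libraries and *Cela1* lower over both diets by 1.00 (limma adjusted p = 0.0241, passed in 3 of 8 fits with 1 library left out). Most of the difference in the adipocyte sum lay in *Cidec* and *Cfd*. *Cidec* was 1.41 to 2.24 FPKM in f/f-labelled and 5.67 to 10.8 FPKM in LKO-labelled libraries, and *Cfd* 0.182 to 1.87 FPKM and 0.538 to 5.45 FPKM. *Fabp4* was 6.45 to 8.94 FPKM and 7.05 to 10.4 FPKM. A separation of the genotype labels over both diets, as in both sums, *Cidec* and *Cela1*, was shown in either direction by 4.91% of tested genes. Of the 4 tested adipocyte markers, 0 passed the adjusted limma test between genotypes over both diets. The part of the cell type markers in the results on carboxylesterases was not tested.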

How the data were processed

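RNA of 8 liver libraries, 2 for each of 4 groups, had been sequenced as paired-end reads from poly(A) RNA. The authors trimmed reads with cutadapt 1.0 (quality cutoff 20), aligned them to GRCm38 with TopHat2 2.0.7 and estimated FPKM per gene with Cufflinks, whose version is not given in the sources used here. The deposited values are these FPKM for 38283 genes and hold no counts. Depth is therefore unknown, no counting intervals are given and no test built on counts was run. Groups came from the sample labels. The libraries are pools of different animals, so p-values measure the spread between pools.

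Genes were matched by Ensembl identifier to GENCODE M21 (36341 of 38283). The 11634 genes that exceeded FPKM 1 in any library were put on the log2(FPKM + 1) scale, quantile normalised, as the study did, and fitted with limma 3.58.1 in R 4.3.3 in 1 model of the 4 groups with a mean-variance trend (4 residual degrees of freedom, to which moderation added 2.80). P-values were two-sided and Benjamini-Hochberg adjusted over all tested genes within each of 7 comparisons, and a gene was called at an adjusted p under 0.05. The steps were tested on simulated data. The study's own permutation procedure was not used. Identities came from pairwise alignments of the GENCODE M21 transcripts and RefSeq promoters, and shared words of 50 bases from all GENCODE M21 transcripts. Figures were drawn with matplotlib 3.10.9.

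The members and the gene lists were chosen with earlier results of these data known. All 10 members are named, and of each other list the called genes, up to 3 in a comparison by size, or else the largest value in each genotype and diet comparison. *Cyp2c55*, *Cyp2c29*, *Gstm1*, *Nr1i3* and *Gstt1* and the called cell type markers fall outside this rule and were named after their values were seen. One gene of the list of transcription factors is not reported here. Alternatives were no normalisation, median centring, scaling libraries to equal sums (TPM), 0.1 as the pseudocount, a filter on FPKM of 1 in every library or on FPKM over 0 in any, leaving out genes listed at 0, the replicate number as a block, no trend, a separate fit per comparison, omission of single libraries, and an unadjusted p.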

Additional observations from a re-analysis of the deposited data

Results flagged for a closer look

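For *Ces1d*, the LKO-labelled pair lay above the f/f-labelled pair on HFD (345 and 323 against 278 and 290 FPKM) and below it on CD (271 and 349 against 427 and 350 FPKM). For *Ces3b* the order was the reverse, lower on HFD (117 and 146 against 180 and 265 FPKM) and higher on CD (207 and 239 against 191 and 200 FPKM). In each case the order of the genotype labels was opposite on the 2 diets, though the nearest pair of *Ces1d* on CD was almost level. A gap between the genotype pairs in either direction was shown by 42.1% of tested genes on HFD and 43.3% on CD. The share of genes with opposite gaps was not counted. The difference of the 2 genotype effects was 0.65 for *Ces1d* (limma unadjusted p = 0.0155) and −0.88 for *Ces3b* (unadjusted p = 0.0147) on the log2 scale, and both failed the correction over all tested genes (adjusted p = 0.558). The *Ces1d* value on CD lay between −0.55 and −0.18 when single libraries were omitted.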

How the results depend on the processing

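Over the 70 fold changes of the 10 genes, 670 values were recomputed under other settings of scaling, filter, pseudocount and fit, and 645 kept their direction and side of the threshold, 10 lost the call, 2 gained one and 13 changed sign. With 1 library left out, 500 of 560 kept both, 25 lost the call and 35 changed sign. No fold change that changed sign in any of these had a reported size above 0.22 on the log2 scale, and the cause was not tested. Over both labels the diet calls of *Ces2a* and *Ces2c* held throughout, that of *Ces1c* was lost without normalisation, with median centring, with libraries scaled to equal sums and with FPKM above 0 in any library, and *Ces3a* was called without normalisation and with median centring.

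The number of genes called between diets in f/f-labelled libraries was 2, but 1 with libraries scaled to equal sums (TPM), 1 with FPKM above 0 in any library, 1 without the trend, 1 from the libraries of the comparison alone and 0 to 1 with 1 library left out. In LKO-labelled libraries it was 2, but 0 from the libraries of the comparison alone, where 2 against 2 libraries set the spread, and 0 to 2 with 1 library left out. By the unadjusted p it was 5 between genotypes on HFD, 1 on CD, 3 for the interaction, 4 between diets under the f/f label, 5 under the LKO label, 3 between genotypes over both diets and 6 between diets over both labels.

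The largest summed FPKM, 983738 with 183794 in 1 gene, was that of f/f CD replicate 2, against 732622 to 806782 in the other libraries. In 2 comparisons without f/f CD libraries, the median of all tested genes under TPM scaling was 0.0126 (diets under the LKO label) and 0.00518 (genotypes on HFD). Under TPM scaling this median was 0.19 between diets under the f/f label, 0.103 over both labels, 0.182 between genotypes on CD and −0.172 for the interaction. With quantile normalisation it was 0.0107, 0.0109, −0.000854 and 0.00535 in the same order. Under TPM scaling these log2 fold changes changed sign: *Ces2c* between genotypes on CD (0.15), *Ces2e* between diets under the f/f label (0.10), over both labels (0.072) and for the interaction (−0.050), *Ces1d* between genotypes over both diets (0.073) and *Ces1c* for the interaction (−0.27). Without normalisation so did *Ces1c* for the interaction (−0.075), *Ces1f* between diets under the f/f label (−0.023), *Ces1e* under the LKO label (−0.026) and *Ces1g* between genotypes over both diets (−0.0023). *Ces1c* also changed sign for the interaction with median centring (−0.074), with FPKM above 1 in all libraries (−0.037) and without genes listed at 0 (−0.037). Of other genes named, *Ttr* over both labels changed sign without normalisation (−0.011), as did *Apoc3* under the LKO label (−0.029), which was −0.0015 with median centring.

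With 1 library left out, ranges that crossed 0 were, between genotypes on HFD, −0.10 to 0.17 for *Ces2a*, and on CD −0.076 to 0.14 for *Ces1e*, −0.015 to 0.21 for *Ces1f* and −0.36 to 0.29 for *Ces2c*. For the interaction they were −0.011 to 0.083 for *Ces1c*, −0.29 to 0.012 for *Ces2a*, −0.078 to 0.39 for *Ces2e* and −0.17 to 0.12 for *Ces3a*. Between diets they were −0.067 to 0.16 for *Ces1f*, −0.32 to 0.16 for *Ces2e* and −0.082 to 0.52 for *Ces3b* under the f/f label, −0.051 to 0.16 for *Ces1e* and −0.10 to 0.26 for *Ces1g* under the LKO label, and −0.10 to 0.081 for *Ces1d* and −0.12 to 0.12 for *Ces2e* over both. Between genotypes over both diets they were −0.13 to 0.055 for *Ces1d* and −0.10 to 0.14 for *Ces1g*.

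Libraries with the same replicate number were made from different mice. The correlation of their deviations from the group means was −0.0037 to 0.149 over 6 pairs of groups and −0.061 to 0.035 without genes listed at 0. With the replicate number as a block, the numbers of genes called were 2, 2 and 3 between diets under the f/f label, the LKO label and both, and 0 in the other 4 comparisons, as without it. Of the other calls in the text, the block ended those between diets of *Apob*, *Gusb*, *Hnf4a*, *Pparg* and *Fabp4* over both labels and of *Cebpa* under the f/f label, and that of *Cela1* between genotypes.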
